A study of Mus musculus with 12 samples.

Results

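Macrophages secrete proteins that are built into the extracellular matrix (ECM) or that crosslink it, and 10 such genes were examined: Fn1, Thbs1, Postn, Sparc, Spp1, Tgfbi, Ecm1, Vcan and the transglutaminase genes F13a1 and Tgm2. They were chosen by name with earlier results of these data known, and each matched 1 of the 34327 genes in the expression table. The samples were bone marrow–derived macrophages (BMDMs) from wild-type C57BL/6J mice (C57BL/6 in the strain label), grown out of marrow in medium conditioned by L929 cells and then cultured for 24 hours by the labels. BMDMs were kept on tissue culture (TC) plates or embedded in gels of rat tail type I collagen at 2 mg/ml (low collagen) or 7 mg/ml (high collagen), and each was left untreated or given interleukin-4 (IL-4) at 20 ng/ml. This made 6 conditions with 2 RNA sequencing libraries each, 12 in all. All comparisons asked how IL-4 and the surrounding collagen, separately and together, set the mRNA level of each gene.

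Matrix glycoproteins are secreted proteins that bind collagen, one another and cell surface integrins, and many carry the short RGD sequence that integrins recognize. Thrombospondin-1, periostin, osteopontin and SPARC are called matricellular, since they act on cells rather than holding the tissue together, and they are commonly made during wound repair. Transglutaminases join glutamine and lysine side chains of neighbouring proteins, which fixes fibrin and fibronectin into a stable network. IL-4 acts on macrophages through the transcription factor STAT6 and gives the state often called alternative activation.

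Levels are given as TPM, a measure of transcript abundance that allows for transcript length, adds up to 1 fixed sum per library and carries no read depth. The 4 genes used to check the IL-4 label (Arg1, Mrc1, Retnla and Chil3) were higher in every IL-4 library than in any untreated library of the same culture. Of 9 macrophage markers found in the table, 9 reached 1 TPM in at least 1 library. They summed to 18573 to 56057 TPM, of which Lyz2 alone gave 13223 to 48901 TPM. Of 12 fibroblast and stromal markers 3 reached 1 TPM, their sum was 2.59 to 5.40 TPM, and Dpt was listed at 0 throughout. Osteoblast markers summed to 1.80 to 5.67 TPM, neutrophil markers to 5.25 to 34.6 TPM and eosinophil markers to 2.25 to 5.06 TPM. Megakaryocyte and platelet markers summed to 817 to 1175 TPM, of which Pf4 alone gave 812 to 1159 TPM, and endothelial markers to 32.2 to 228 TPM, nearly all of it Vwf at 30.9 to 227 TPM. In this bulk RNA, fewer cells of a type and less RNA per cell cannot be told apart. Gels and plates also differed in culture format and cell number, and these cannot be told apart from the collagen.

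The 250 bases before the start site of 4 of these genes are shown because Postn, Ecm1 and F13a1 were higher in gels than on plates with IL-4 while Spp1 was lower. All are from RefSeq on GRCm38.p6 and run 5′ to 3′ on the gene's strand, with TATAAA (the TATA box) and TGANTCA (the AP-1 motif) in capitals.
Postn, chr3:54360857-54361106, plus strand: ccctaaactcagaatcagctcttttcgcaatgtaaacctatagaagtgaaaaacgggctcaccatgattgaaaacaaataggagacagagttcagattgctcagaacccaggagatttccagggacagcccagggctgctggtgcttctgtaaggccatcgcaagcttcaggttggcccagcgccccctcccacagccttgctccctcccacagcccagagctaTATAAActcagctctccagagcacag
Ecm1, chr3:95739570-95739819, minus strand: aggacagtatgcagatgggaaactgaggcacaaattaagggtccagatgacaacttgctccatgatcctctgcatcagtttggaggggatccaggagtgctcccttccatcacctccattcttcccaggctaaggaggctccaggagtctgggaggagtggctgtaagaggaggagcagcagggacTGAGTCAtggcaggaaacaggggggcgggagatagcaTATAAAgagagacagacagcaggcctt
F13a1, chr13:37050245-37050494, minus strand: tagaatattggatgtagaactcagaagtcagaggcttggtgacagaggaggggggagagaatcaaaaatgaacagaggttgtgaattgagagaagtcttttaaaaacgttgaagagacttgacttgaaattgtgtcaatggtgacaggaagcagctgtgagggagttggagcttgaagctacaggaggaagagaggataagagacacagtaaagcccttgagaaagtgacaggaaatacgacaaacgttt
Spp1, chr5:104434861-104435110, plus strand: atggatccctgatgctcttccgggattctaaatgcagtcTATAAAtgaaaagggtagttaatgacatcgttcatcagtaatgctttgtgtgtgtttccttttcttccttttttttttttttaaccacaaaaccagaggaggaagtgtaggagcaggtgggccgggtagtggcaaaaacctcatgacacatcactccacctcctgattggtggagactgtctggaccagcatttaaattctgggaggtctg
Motifs were searched on both strands, and positions are counted back from the start site, with -1 the base just before it. In Postn TATAAA lay at position -26 and in Ecm1 at position -27, close to where a TATA box is usually placed, whereas in Spp1 it lay at position -211. The Ecm1 window also held TGAGTCA at position -64 and GGGCGG (the GC box) at position -42. No motif searched was found in the F13a1 window, and none of the 4 windows held the STAT6 motif, TTC and GAA with 4 bases between them. Of the table's 32851 promoters, 12.4% held TATAAA, 6.75% held TGANTCA, 32.7% held GGGCGG and 5.85% held the STAT6 motif, while the cyclic AMP response element (TGACG followed by TCA) and the CArG box, also searched, were in 1.55% and 1.47% and in none of the 4 windows. These are matches of letters only. The table held a window for 7 of the 10 genes, and Fn1, Thbs1 and Tgm2 were those without one. Postn, Spp1 and F13a1 each had a second window, not shown, with start sites at 54359267, 104436192 and 37049213. Those windows lay farther from the annotated gene start and held none of the motifs searched.

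**Figure D1:**
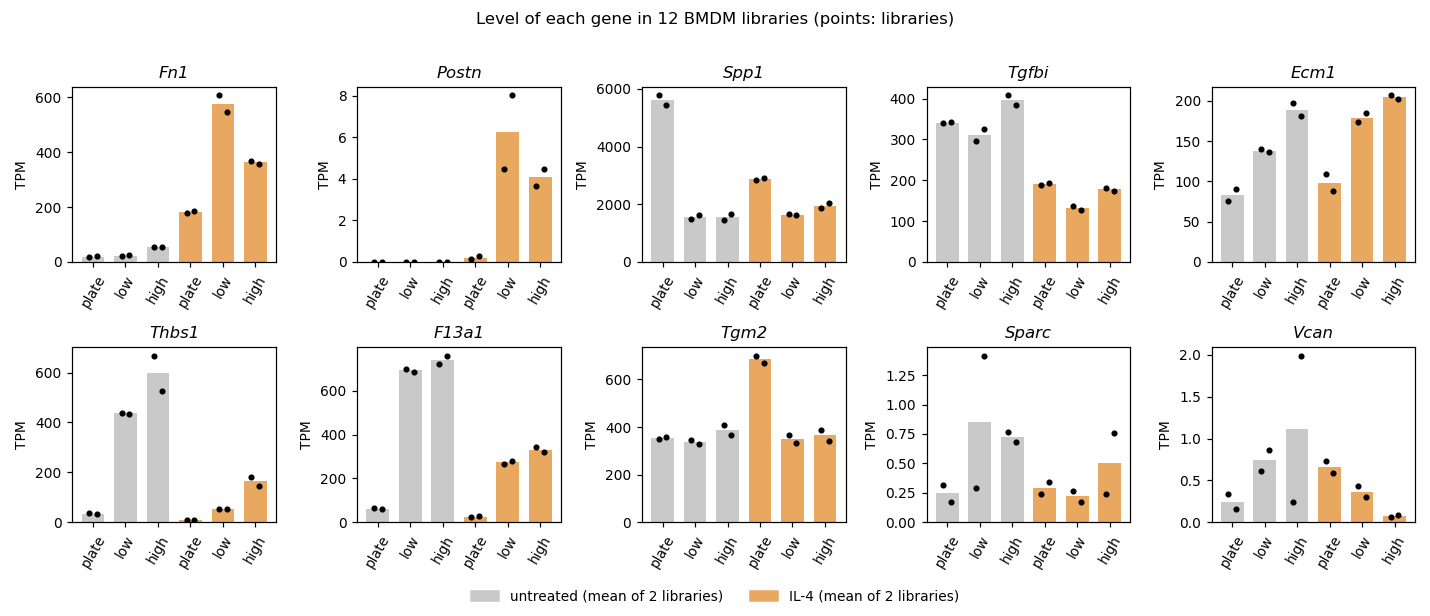
Level of the 10 genes in TPM (vertical axes, linear from 0, each gene with its own scale) in untreated BMDMs (grey) and with IL-4 (orange), on TC plates and in low- and high-collagen gels (horizontal axis). Bars are the mean of 2 libraries and points are the libraries; Fn1 was highest at 607 TPM in low-collagen gels with IL-4, Thbs1 at 668 TPM in untreated high-collagen gels and Spp1 at 5778 TPM on untreated plates.

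The plot of levels by library shows that the genes did not follow 1 pattern. Together they took 0.317% to 0.668% of all TPM in a library, and Spp1 made up 36.9% to 86.7% of that sum. Comparing conditions by their mean level, the highest stood 79.4-fold above the lowest for Thbs1, 30.6-fold for Fn1, 30.0-fold for F13a1, 3.63-fold for Spp1, 3.00-fold for Tgfbi, 2.45-fold for Ecm1 and 2.04-fold for Tgm2. Sparc and Vcan stayed too low to be tested, and Postn passed the limit of a mean of 1 TPM only through its IL-4 libraries.

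Fibronectin is the adhesive glycoprotein that cells pull into fibrils through integrins. Its gene Fn1 (chr1:71585520-71653200, minus strand) had 17.3 and 20.5 TPM on untreated plates, 20.3 and 25.6 TPM in untreated low-collagen gels and 55.3 and 55.1 TPM in untreated high-collagen gels. With IL-4 it reached 178 and 186 TPM on plates, 607 and 547 TPM in low-collagen gels and 368 and 357 TPM in high-collagen gels. Every IL-4 library lay above every untreated one, and only untreated plates and untreated low-collagen gels overlapped among neighbours in the order of levels. IL-4 raised Fn1 on plates by 3.21 ± 0.11 (log2 of TPM + 1, SE; adjusted p = 5.92e-08, limma with Benjamini-Hochberg adjustment), between its rise in high-collagen gels (2.69 ± 0.11) and in low-collagen gels (4.60 ± 0.11). The response in low-collagen gels exceeded that on plates by 1.39 ± 0.16 (adjusted p = 0.000693, limma), whereas that in high-collagen gels was smaller than on plates by 0.51 ± 0.16 (log2 difference -0.51, adjusted p = 0.0880, limma). The latter call was lost without the first untreated plate library (-0.40, adjusted p = 0.251), without the second IL-4 plate library (-0.48, adjusted p = 0.211) and without the second high-collagen IL-4 library (-0.49, adjusted p = 0.204), all by limma. High collagen thus went with more Fn1 in untreated cells (1.24 ± 0.11) and with less Fn1 under IL-4 (-0.67 ± 0.11). In low-collagen gels with IL-4 its rise ranked 19 of 11852 genes, and its level ranked between 255 and 285 in those libraries against 6227 to 6728 on untreated plates.

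Thrombospondin-1 binds CD36, CD47 and integrins and can activate latent transforming growth factor-β (TGF-β). Its gene Thbs1 (chr2:118111876-118127133, plus strand) had 35.9 and 32.9 TPM on untreated plates, 438 and 435 TPM in untreated low-collagen gels and 668 and 528 TPM in untreated high-collagen gels. With IL-4 the libraries held 7.49 and 7.56 TPM on plates, 53.8 and 53.1 TPM in low-collagen gels and 182 and 147 TPM in high-collagen gels. No neighbouring conditions overlapped in the order of levels, from untreated high-collagen gels at the top to IL-4 plates at the bottom. Untreated gels exceeded untreated plates by 3.63 ± 0.12 at low collagen (adjusted p = 2.70e-08) and by 4.07 ± 0.12 at high collagen (adjusted p = 1.45e-08, limma), placing the gene 8 and 6 in rank among the rises of 11865 genes. With IL-4 the same differences were 2.67 ± 0.12 and 4.27 ± 0.12. IL-4 lowered Thbs1 in each culture, with log2 changes of -2.05 ± 0.12 on plates, -3.01 ± 0.13 in low-collagen gels and -1.85 ± 0.13 in high-collagen gels. The fall was larger in low-collagen gels than on plates (difference -0.95 ± 0.17, adjusted p = 0.00684, limma), and for high-collagen gels against plates the difference was 0.20 with a 95% interval of -0.18 to 0.57. High collagen raised Thbs1 under IL-4 by 1.59 ± 0.13 (adjusted p = 0.00347, limma). In untreated gels the difference was 0.44 ± 0.13 (adjusted p = 0.155, limma), with the second high-collagen library at 528 TPM and the first at 668 TPM. That call was lost without the first untreated high-collagen library (0.27, adjusted p = 0.434), without either untreated low-collagen library (0.45 and 0.44, adjusted p = 0.302 and 0.343) and without either low-collagen IL-4 library (adjusted p of at least 0.213), by limma. The difference between the IL-4 responses at high and low collagen, 1.15 ± 0.18 (adjusted p = 0.126, limma), was lost when any of 6 of the 8 gel libraries was left out, with adjusted p between 0.202 and 0.382: both untreated low-collagen libraries, both low-collagen IL-4 libraries and both high-collagen IL-4 libraries. It was also lost after median-ratio rescaling (1.05, adjusted p = 0.241, limma).

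Periostin is a matricellular protein that binds collagen I and fibronectin and is a familiar product of fibroblasts and osteoblasts. Its gene Postn (chr3:54361109-54391037, plus strand) was listed at 0 in all 6 untreated libraries. With IL-4 it had 0.129 and 0.300 TPM on plates, 4.46 and 8.03 TPM in low-collagen gels and 3.66 and 4.50 TPM in high-collagen gels. Gel libraries given IL-4 therefore stood apart from all others, while low- and high-collagen gels overlapped. Because Postn passed the limit on low levels only through these libraries, no test of IL-4 or of gels against plates is given for it. With IL-4, high against low collagen gave a difference of -0.47, with a 95% interval of -1.13 to 0.18. The 12 fibroblast and stromal markers summed, with IL-4, to 3.77 and 4.20 TPM on plates, 3.49 and 2.59 TPM in low-collagen gels and 3.56 and 4.19 TPM in high-collagen gels. Of these markers Acta2 lay at 0.579 to 3.18 TPM, Thy1 at 0.675 to 2.22 TPM and Fap at up to 1.14 TPM over the 12 libraries, the other 9 stayed below 1 TPM, and Dpt was at 0. The osteoblast sum with IL-4 was 5.67 and 2.76 TPM on plates, 2.57 and 1.80 TPM in low-collagen gels and 3.55 and 3.81 TPM in high-collagen gels, mostly Runx2 at 1.71 to 4.67 TPM, while Bglap2, Ibsp and Alpl were at 0. The part of such cells in the Postn level was not tested.

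SPARC binds collagen, and versican, the product of Vcan, is a large proteoglycan that binds hyaluronan. Sparc (chr11:55394500-55423183, minus strand) ranged from 0.170 to 1.42 TPM with a median of 0.306 TPM, and Vcan (chr13:89655312-89742509, minus strand) from 0.0677 to 1.99 TPM with a median of 0.384 TPM. Their highest values were each in 1 library, the second untreated low-collagen library for Sparc and the second untreated high-collagen library for Vcan, while the other library of the same condition held 0.293 and 0.247 TPM. At such levels no difference between conditions was tested.

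Osteopontin, encoded by Spp1 (chr5:104435118-104441050, plus strand), is a phosphorylated glycoprotein that binds integrins and CD44 and acts as a cytokine as well as a matrix protein. It had 5778 and 5438 TPM on untreated plates and 2828 and 2922 TPM on plates with IL-4. In gels it stayed between 1441 and 2042 TPM: 1504 and 1638 TPM in untreated low-collagen gels, 1441 and 1652 TPM in untreated high-collagen gels, and, under IL-4, 1655 and 1624 TPM at low and 1874 and 2042 TPM at high collagen. Plate libraries thus lay above every gel library with or without IL-4. On plates Spp1 ranked 9 and 11 among all genes without IL-4. Against untreated plates the log2 difference was -1.84 ± 0.07 at low collagen (adjusted p = 6.51e-08) and -1.86 ± 0.07 at high collagen (adjusted p = 5.37e-08, limma). IL-4 lowered Spp1 on plates (-0.96 ± 0.07, adjusted p = 1.08e-05, limma). In gels the difference was 0.063 with a 95% interval of -0.12 to 0.25 at low collagen, and there was a rise of 0.34 ± 0.08 at high collagen (adjusted p = 0.0249, limma). These responses differed from that on plates by 1.03 ± 0.10 at low collagen (adjusted p = 0.000400) and 1.31 ± 0.10 at high collagen (adjusted p = 0.000150, limma). High collagen exceeded low collagen with IL-4 by 0.25 ± 0.08 (adjusted p = 0.115, limma), a call lost without the second high-collagen IL-4 library (0.19, adjusted p = 0.423) and without either low-collagen IL-4 library (0.27 and 0.24, adjusted p = 0.247 and 0.351). Median-ratio rescaling ended that call too (0.18, adjusted p = 0.264, limma) and made the IL-4 difference at low collagen a rise (0.27, adjusted p = 0.0553, limma).

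Transforming growth factor-β–induced protein, made from Tgfbi (chr13:56609523-56639562, plus strand), carries an RGD sequence and binds collagens. Untreated libraries held 341 and 342 TPM on plates, 297 and 326 TPM in low-collagen gels and 408 and 383 TPM in high-collagen gels. IL-4 libraries held 187 and 193 TPM on plates, 137 and 127 TPM in low-collagen gels and 181 and 175 TPM in high-collagen gels, all below every untreated library. IL-4 lowered it, with log2 changes of -0.84 ± 0.06 on plates, -1.23 ± 0.07 at low collagen and -1.15 ± 0.07 at high collagen, and with adjusted p of at most 4.40e-05 by limma. The fall was larger than on plates by -0.39 ± 0.09 at low collagen (adjusted p = 0.0223, limma) and by -0.31 ± 0.09 at high collagen (adjusted p = 0.0749, limma), the latter with adjusted p = 0.208 without the first untreated high-collagen library. High collagen exceeded low collagen by 0.43 ± 0.07 with IL-4 (adjusted p = 0.0237, limma). In untreated gels the difference was 0.34 ± 0.07 (adjusted p = 0.0827, limma) and was lost without either untreated high-collagen library (adjusted p = 0.294 and 0.223) or the first untreated low-collagen library (adjusted p = 0.205).

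The product of Ecm1 (chr3:95734147-95739569, minus strand) is a secreted protein that binds other matrix components. It had 75.7 and 91.0 TPM on untreated plates, 109 and 87.8 TPM on plates with IL-4, 140 and 137 TPM in untreated low-collagen gels and 174 and 185 TPM in IL-4 low-collagen gels. High-collagen gels held 197 and 181 TPM untreated and 207 and 202 TPM with IL-4. All gel libraries lay above all plate libraries, and the 2 plate conditions overlapped. Against plates the rise was 0.73 ± 0.11 and 1.18 ± 0.11 in untreated low- and high-collagen gels and 0.87 ± 0.11 and 1.06 ± 0.11 with IL-4, each with adjusted p of at most 0.000281 by limma. High collagen exceeded low collagen by 0.45 ± 0.07 in untreated gels (adjusted p = 0.0497, limma) and by 0.19 ± 0.07 with IL-4 (adjusted p = 0.148, limma). The latter call was lost without any 1 of the 4 IL-4 gel libraries, with adjusted p between 0.269 and 0.397, and after median-ratio rescaling (0.11, adjusted p = 0.477). IL-4 raised Ecm1 in low-collagen gels by 0.37 ± 0.07 (adjusted p = 0.00498, limma), and in high-collagen gels the difference was 0.11 with a 95% interval of -0.040 to 0.27 (0.22 and adjusted p = 0.152 by limma after rescaling). On plates the difference was 0.24 ± 0.11 (adjusted p = 0.164, limma) and was lost without the first untreated plate library (0.10, adjusted p = 0.632) or the first IL-4 plate library (0.080, adjusted p = 0.690).

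Factor XIII-A, encoded by F13a1 (chr13:36867178-37050244, minus strand), is the transglutaminase subunit best known for crosslinking fibrin. It had 64.5 and 59.9 TPM on untreated plates and 22.4 and 27.1 TPM on plates with IL-4. Low-collagen gels held 701 and 687 TPM untreated and 266 and 281 TPM with IL-4, and high-collagen gels 725 and 761 TPM untreated and 343 and 319 TPM with IL-4. No neighbouring conditions overlapped, and the lowest gel library stood above the highest plate library. Against plates F13a1 was higher by 3.46 ± 0.08 at low and 3.56 ± 0.08 at high collagen without IL-4, and by 3.42 ± 0.08 and 3.69 ± 0.08 with IL-4 (adjusted p at most 1.59e-08, limma). It ranked 14, 18, 23 and 16 among the rises in these comparisons. IL-4 lowered F13a1 in each culture, with log2 changes of -1.30 ± 0.08 on plates, -1.34 ± 0.06 in low-collagen gels and -1.17 ± 0.06 in high-collagen gels. The response differed from plates by -0.043 (95% interval -0.31 to 0.23) at low collagen and 0.13 (-0.14 to 0.40) at high collagen. High collagen exceeded low collagen with IL-4 by 0.27 ± 0.06 (adjusted p = 0.0488, limma), a call lost without the first high-collagen IL-4 library (0.22, adjusted p = 0.202) and after median-ratio rescaling (0.20, adjusted p = 0.241), and in untreated gels the difference was 0.097 (95% interval -0.044 to 0.24).

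Tissue transglutaminase, encoded by Tgm2 (chr2:158116402-158146436, minus strand), crosslinks fibronectin and other matrix proteins. It had 700 and 668 TPM on plates with IL-4 against 349 and 358 TPM on untreated plates. Gel libraries held 344 and 328 TPM in untreated low-collagen gels, 410 and 366 TPM in untreated high-collagen gels, and under IL-4 365 and 334 TPM at low and 390 and 343 TPM at high collagen. The IL-4 plate libraries lay above all others, and the other 5 conditions overlapped with their neighbours. IL-4 raised Tgm2 on plates by 0.95 ± 0.08 (adjusted p = 1.84e-05, limma), and the difference was 0.057 (95% interval -0.15 to 0.26) at low and -0.083 (-0.29 to 0.12) at high collagen, the former becoming 0.26 (adjusted p = 0.0965, limma) after rescaling. The response in gels was below that on plates by -0.89 ± 0.11 at low collagen (adjusted p = 0.00114) and by -1.03 ± 0.11 at high collagen (adjusted p = 0.000758, limma). Untreated high-collagen gels exceeded untreated plates by 0.13 ± 0.08 (adjusted p = 0.174, limma), a call lost without either untreated plate library (adjusted p = 0.381 and 0.250) or the first untreated high-collagen library (0.049, adjusted p = 0.669). Of the 31-base words of the Tgm2 transcripts 12.5% were shared with Gm20412 and 7.48% with Rprd1b, which overlap it on the opposite strand, and Rprd1b itself lay at 7.76 to 15.7 TPM. For Spp1 14.3% of the words were shared with the overlapping Gm42793.

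**Figure D2:**
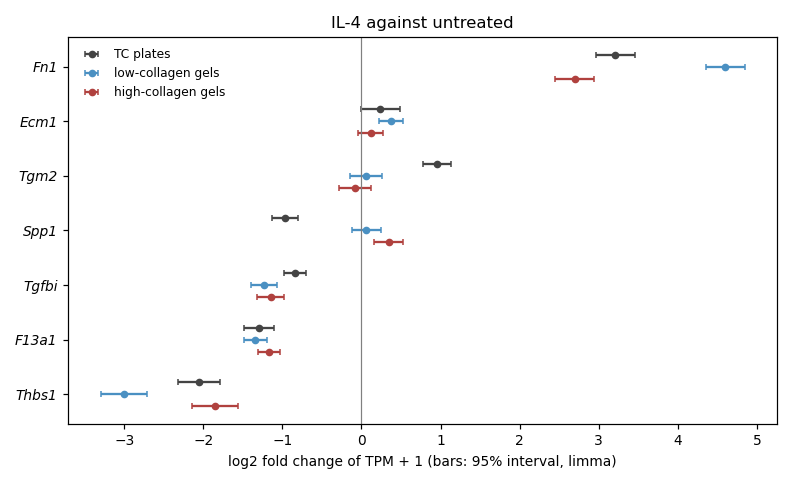
Change with IL-4 against untreated for 7 genes (vertical axis), as log2 fold change of TPM + 1 (horizontal axis), on TC plates (dark grey), in low-collagen gels (blue) and in high-collagen gels (red). Points are limma estimates and bars 95% intervals; Fn1 rose by 2.69 to 4.60, and on plates Spp1 fell (-0.96) and Tgm2 rose (0.95), while in gels Spp1 lay at 0.063 and 0.34 and Tgm2 at 0.057 and -0.083.

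IL-4 moved the tested genes both ways in each culture, as the plot of IL-4 effects shows. Leaving Postn aside, 2 of 7 tested genes rose and 3 fell in low-collagen gels (adjusted p under 0.2, limma), where 53.6% of all 11852 genes tested were called, 13.2% higher and 40.4% lower. In high-collagen gels the counts were again 2 and 3 of 7, with 34.3% of all genes called (11.5% higher, 22.8% lower), and on plates 3 rose and 4 fell of 7, with 38.8% of all genes called (14.7% higher, 24.0% lower). With libraries rescaled by median ratios, the shares of all genes called higher and lower became 23.5% and 21.1% in low-collagen gels, 16.8% and 14.9% in high-collagen gels and 18.8% and 20.3% on plates. The median log2 change of all genes, which was -0.19, -0.10 and -0.060 in these comparisons, moved to near 0. The median over the 7 genes was 0.057, -0.083 and -0.84 in the same order.

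**Figure D3:**
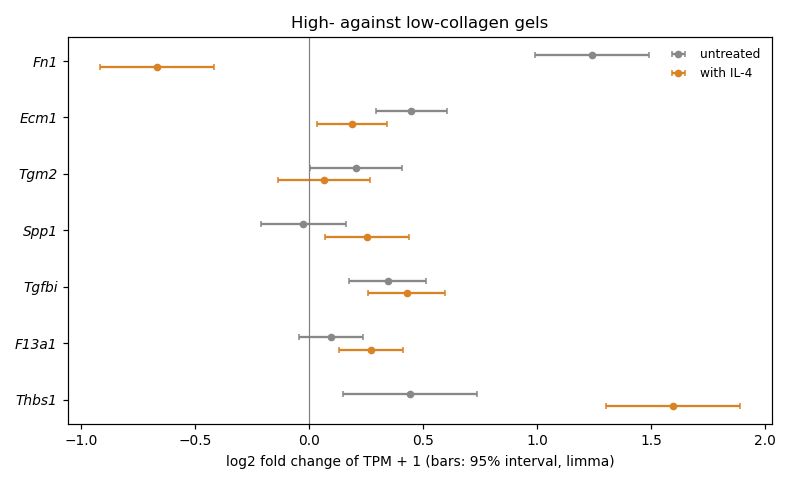
Difference between high- and low-collagen gels for 7 genes (vertical axis), as log2 fold change of TPM + 1 (horizontal axis), in untreated BMDMs (grey) and with IL-4 (orange). Points are limma estimates and bars 95% intervals; Fn1 was 1.24 higher in untreated gels and -0.67 with IL-4, and Thbs1 was 0.44 and 1.59 higher.

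Between the collagen concentrations, the plot of collagen effects shows Fn1 on opposite sides of 0 with and without IL-4. With IL-4, 5 of 7 tested genes were higher in high-collagen gels (Thbs1, Tgfbi, F13a1, Spp1 and Ecm1) and 1 was lower (Fn1), against 21.1% of all genes called, 14.1% higher and 6.99% lower. Untreated, 4 of 7 were higher (Fn1, Ecm1, Thbs1 and Tgfbi) and 0 lower by limma, against 8.02% of all genes, 3.23% higher and 4.79% lower. Tgm2 was the one other of the 7 genes with an unadjusted p under 0.05 by limma. Of the 4 calls, Thbs1 (adjusted p = 0.155) and Tgfbi (adjusted p = 0.0827, limma) were lost at adjusted p under 0.05. Both also depended on single libraries, as given with each gene above. Rescaling gave 10.3% of all genes higher and 11.4% lower with IL-4, and 3.84% and 3.60% untreated. With IL-4 it left Fn1, Thbs1 and Tgfbi called, while F13a1 (0.20, adjusted p = 0.241), Spp1 (0.18, adjusted p = 0.264) and Ecm1 (0.11, adjusted p = 0.477) lost their calls by limma. A difference in IL-4 response between high and low collagen was called for 0.363% of all genes (0.194% higher, 0.169% lower, and 0.118% and 0.211% after rescaling). A missing call does not show an equal response, and 3.01% of all genes had a difference of at least 2-fold. Among the 7 tested genes 2 were called, Fn1 and Thbs1, in opposite directions. The Thbs1 call (adjusted p = 0.126, limma) was lost after median-ratio rescaling, after quantile normalization and at adjusted p under 0.05. It also depended on single libraries, as given with the gene above. In high-collagen gels the IL-4 rise of Fn1 and the IL-4 fall of Thbs1 were both smaller in size than in low-collagen gels.

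**Figure D4:**
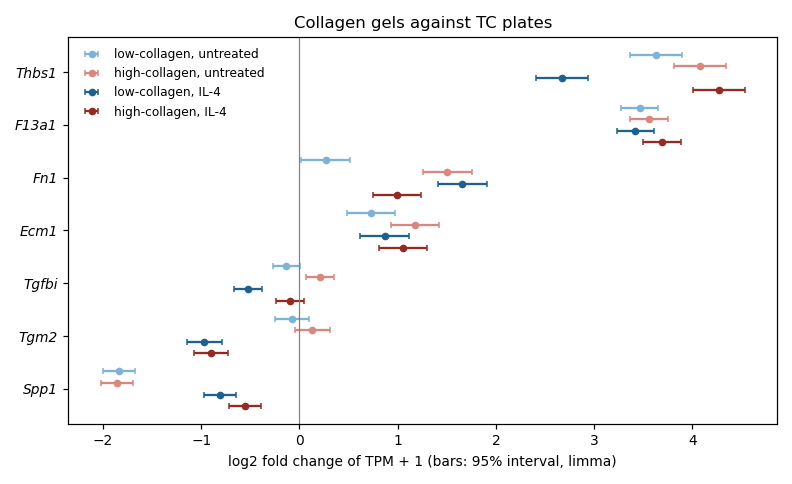
Difference between collagen gels and TC plates for 7 genes (vertical axis), as log2 fold change of TPM + 1 (horizontal axis), for low- and high-collagen gels (blue and red), untreated (light) and with IL-4 (dark). Points are limma estimates and bars 95% intervals; Thbs1 and F13a1 lay between 2.67 and 4.27, and Spp1 between -1.86 and -0.56.

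Most genes in the table were called between gels and plates. Low-collagen gels against plates called 72.8% of all genes untreated (28.5% higher, 44.3% lower) and 75.1% with IL-4 (22.8% and 52.2%), and high-collagen gels 73.5% (28.0% and 45.5%) and 74.6% (26.5% and 48.1%). After rescaling the higher and lower shares were 37.1% and 36.0%, 36.4% and 35.7%, 37.0% and 36.7%, and 37.6% and 36.4% in the same order. The median log2 difference of all genes was -0.13, -0.28, -0.16 and -0.20 in that order before rescaling. Of the 7 tested genes other than Postn, 4 were higher and 2 lower in untreated low-collagen gels, 6 and 1 in untreated high-collagen gels, and under IL-4 4 and 3 at low and 4 and 2 at high collagen. Thbs1, F13a1, Ecm1 and Fn1 were higher in all 4 comparisons, and Spp1 was lower in all 4. Fn1 exceeded plates by 1.50 ± 0.11 in untreated high-collagen gels (adjusted p = 2.06e-06) and, with IL-4, by 1.66 ± 0.11 at low (adjusted p = 1.64e-06) and 0.99 ± 0.11 at high collagen (adjusted p = 3.43e-05, limma). Tgm2 was lower than on plates with IL-4 by -0.97 ± 0.08 and -0.90 ± 0.08. In 2 comparisons the sign of Tgfbi turned on the scaling: Tgfbi in untreated low-collagen gels was -0.13 ± 0.063 (adjusted p = 0.0986, limma) and 0.041 after rescaling, and Tgfbi at high collagen under IL-4 was -0.098 ± 0.063 (adjusted p = 0.206, limma) and 0.15 after rescaling (adjusted p = 0.0401). Tgfbi in untreated low-collagen gels also lost its call without either untreated plate library (adjusted p = 0.210 and 0.229) or the first untreated low-collagen library (adjusted p = 0.463). Fn1 in untreated low-collagen gels was 0.27 ± 0.11 above plates (adjusted p = 0.0612, limma), a call lost without the first untreated plate library (0.15, adjusted p = 0.347) or the second untreated low-collagen library (0.10, adjusted p = 0.427). Responses to IL-4 were called different from plates for 28.0% of all genes in low-collagen gels (9.30% higher, 18.7% lower, and 14.5% and 10.1% after rescaling). In high-collagen gels 17.3% were called (8.66% and 8.61%, and 11.1% and 6.99% after rescaling). Of the 7 tested genes other than Postn, 2 had a higher and 3 a lower response in low-collagen gels, and 1 and 3 in high-collagen gels. Marker sums of several cell types also moved between plates and gels. Macrophage markers summed to 18573 to 30079 TPM on plates and 32530 to 56057 TPM in gels. Lyz2 alone gave 13223 to 48901 TPM of this sum, and the markers did not all move 1 way. Untreated Cd68 lay at 2232 and 2282 TPM on plates and 1418 to 1826 TPM in gels. Untreated Csf1r lay at 704 and 730 TPM on plates and 1624 to 1929 TPM in gels. Neutrophil markers summed to 5.25 to 10.6 TPM on plates and 14.6 to 34.6 TPM in gels. Megakaryocyte and platelet markers summed to 817 to 1003 TPM on plates and 1051 to 1175 TPM in gels. Among the neutrophil markers 4 of 8 reached 1 TPM and Ly6g was at 0, and among the platelet markers 4 of 10 reached 1 TPM, Treml1 lay at 3.56 to 4.37 TPM on plates and 7.27 to 16.4 TPM in gels, and Gp1ba was at 0. The part of these in the differences of the members was not tested.

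Genes of the same pathways were read from 5 lists, whose counts stand beside the shares of all genes called with IL-4: 13.2% higher and 40.4% lower in low-collagen gels, 11.5% and 22.8% in high-collagen gels, and 14.7% and 24.0% on plates. Of 24 receptors of these proteins that were tested, 13 rose and 9 fell with IL-4 in low-collagen gels, 9 rose and 9 fell in high-collagen gels, and 8 rose and 11 fell on plates. Itgax, an integrin chain of dendritic cells and macrophages, rose by 4.83 and 3.88 in low- and high-collagen gels and by 3.27 on plates. Itgb3, a partner of αv in a receptor for osteopontin, rose by 3.11, 2.90 and 3.04. Tlr2 was lowered by IL-4, with log2 changes of -2.15, -1.64 and -2.68 in that order. Cd36, a receptor of thrombospondin-1, was lower in gels than on plates in all 4 comparisons, with differences of -2.41 and -1.89 untreated and -3.10 and -2.45 with IL-4. Cd44, another osteopontin receptor, was lower in gels than on plates with IL-4 by -1.26 and -1.45. Stab1 was lower at high than at low collagen, by -0.99 untreated and by -0.67 with IL-4. At high against low collagen 4 receptors were higher and 6 lower of 24 with IL-4 (all genes 14.1% and 6.99%), and 4 higher and 1 lower of 24 untreated (3.23% and 4.79%).

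Against the same shares of all genes (13.2% and 40.4% at low collagen, 11.5% and 22.8% at high collagen, 14.7% and 24.0% on plates), of 16 other matrix glycoproteins tested (of 77 listed) 4 rose and 7 fell with IL-4 in low-collagen gels, 4 and 4 in high-collagen gels and 5 and 6 on plates. Vwf, the von Willebrand factor gene, rose by 2.08, 2.05 and 1.01, and Fgl2 rose by 1.69, 1.51 and 1.33. Against plates 10 of the 16 were higher and 3 lower in untreated low-collagen gels, where 28.5% of all genes were higher and 44.3% lower. Rescaling made these shares of all genes 37.1% and 36.0%, and the list was not counted again after it. In untreated high-collagen gels 6 were higher and 4 lower (all genes 28.0% and 45.5%). With IL-4 the counts were 8 and 3 at low collagen (22.8% and 52.2%) and 8 and 2 at high collagen (26.5% and 48.1%). Fgl2 led in untreated low-collagen gels with 2.73. Of 6 collagens and proteoglycans tested in gels (of 57 listed), 1 rose and 2 fell with IL-4 at low collagen. Srgn, the proteoglycan of secretory granules, rose by 1.95 there, by 1.29 at high collagen and by 1.36 on plates, and it was also the gene whose levels ran most closely with Fn1 over the 12 libraries (r = 0.988). Of 15 crosslinking and processing enzymes tested in gels, 4 rose and 7 fell with IL-4 at low collagen, and Fam20c, a kinase of secreted proteins, rose by 1.17, 1.18 and 1.12 in low- and high-collagen gels and on plates. Of 21 TGF-β pathway genes tested, 4 rose and 7 fell in low-collagen gels, 2 and 10 in high-collagen gels and 5 and 8 on plates. Tgfbr1, a receptor chain, had log2 changes of -1.33 and -0.88 in low- and high-collagen gels. These responses of Tgfbr1 differed from that on plates by -1.03 and -0.58 (adjusted p = 0.000681 and 0.0163, limma). Smad3 had log2 changes of -1.50, -0.98 and, on plates, -1.25.

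Genes most like each member across the 12 libraries were searched among 9663 genes with a mean of at least 5 TPM, as a description, since the 12 libraries are 6 conditions and share their scaling. F13a1 ran with Itm2b (r = 0.997), Thbs1 with Slc43a2 (0.996), Spp1 with Carhsp1 (0.992), Tgfbi with Itga6 (0.990), Ecm1 with Lemd2 (0.983), Tgm2 with Hipk2 (0.969) and Postn with Ddhd1 (0.969). Postn was listed at 0 in 6 of the 12 libraries and entered this search only through its IL-4 libraries. Its r therefore mainly sets those libraries apart from the rest and is not read as likeness.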

How the data were processed

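Poly(A) RNA of 12 BMDM libraries was sequenced. The authors deposited 1 table of TPM per gene, quantified with kallisto 0.46.1 on the mouse GRCm38 transcriptome per the labels; how transcripts were summed to genes is not given in the sources used here. TPM carries no depth, so intervals from counts were not computed, and kallisto was not stated to use strand. Of 34456 lines, 129 repeated a gene with the same values and were removed. The members and gene lists were chosen with earlier results of these data known. Groups came from the labels; 2 libraries per condition may not be separate cultures, so p-values measure only the spread between these libraries.

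Values were tested as log2(TPM + 1) with limma 3.58.1 in R 4.3.3, with 1 mean per condition and a trend of variance on level, adjusting by Benjamini-Hochberg over all genes with a mean of at least 1 TPM (11852 in the 8 gel libraries, 11865 in all 12), and called at adjusted p under 0.2. Gel comparisons used the 8 gel libraries and plate comparisons all 12. A 2 against 2 exact permutation cannot give a p below 0.33. The script was tested on simulated data. From each other list up to 3 called genes of the largest change, with a mean of at least 5 TPM and no overlap, could be named. Alternatives were a pseudocount of 0.1, other filters, no trend, rescaling, quantile normalization, a replicate block, other libraries in the fit, adjusted p under 0.05 and each library left out.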

Additional observations from a re-analysis of the deposited data

Results flagged for a closer look

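Responses to IL-4 that differed between culture settings by the test of the difference itself were picked out (limma, adjusted p under 0.2). Between high and low collagen these were Fn1, with a log2 difference of -1.91, and Thbs1, with 1.15, a call lost after median-ratio rescaling. Between low-collagen gels and plates they were Fn1 at 1.39, Spp1 at 1.03, Thbs1 at -0.95, Tgm2 at -0.89 and Tgfbi at -0.39. Between high-collagen gels and plates they were Spp1 at 1.31, Tgm2 at -1.03, Fn1 at -0.51 and Tgfbi at -0.31. For Postn, listed at 0 in every untreated library, no fold is given: IL-4 libraries had 0.129 and 0.300 TPM on plates and 3.66 to 8.03 TPM in gels.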

How the results depend on the processing

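Of the values recomputed under other settings, 750 kept their direction and side of the threshold, 33 lost a call, 5 gained one and 12 changed sign. With 1 library left out, 10 values changed sign, and calls were also lost and, less often, gained, many of them given with each gene above. Settings such as no trend, other filters or adjusted p under 0.05 cannot move the log2 value. Leaving out a library outside the comparison cannot move it either. Values that stayed uncalled also counted as kept, so the kept count says little of how firm a call is. Counts here are over 8 members, Postn included. Postn passed the limit on low levels only through its IL-4 libraries, so its calls are not read as support. At high against low collagen with IL-4, 3 members instead of 6 were called after median-ratio rescaling, F13a1, Spp1 and Ecm1 being lost. Untreated, 2 instead of 4 were called at adjusted p under 0.05, and 2 to 4 with 1 library left out. For the difference in IL-4 response between high and low collagen, 1 instead of 2 was called with no filter on low values, with no trend, after median-ratio rescaling, after quantile normalization and at adjusted p under 0.05, and 1 to 2 with 1 library left out. For the response in high-collagen gels against plates, Fn1 and Tgfbi lost their calls at adjusted p under 0.05 (adjusted p = 0.0880 and 0.0749, limma).

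Sign changes after quantile normalization were Spp1 (-0.15) and Tgm2 (-0.038) with IL-4 in low-collagen gels, Tgm2 in untreated low-collagen gels against plates (0.061) and Tgfbi in high-collagen gels against plates with IL-4 (0.070). After median-ratio rescaling they were Tgm2 with IL-4 in high-collagen gels (0.020), Tgm2 at high against low collagen with IL-4 (-0.011), Spp1 at high against low collagen untreated (0.0031), the Tgfbi response difference between high and low collagen (-0.020), Tgfbi (0.041) and Tgm2 (0.10) in untreated low-collagen gels against plates, Tgfbi in high-collagen gels against plates with IL-4 (0.15) and the F13a1 response in low-collagen gels against plates (0.10). With 1 library left out, Tgm2 with IL-4 ranged from -0.00604 to 0.12 in low- and from -0.18 to 0.00887 in high-collagen gels, and from -0.027 to 0.16 at high against low collagen with IL-4. Spp1 at high against low collagen untreated ranged from -0.12 to 0.073. The response against plates ranged for Ecm1 from -0.017 to 0.29 in low- and from -0.28 to 0.034 in high-collagen gels, and for F13a1 from -0.17 to 0.089 in low-collagen gels. The cause was not tested.

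Libraries were numbered by their order in the labels, which give no pairing. Same-numbered libraries did not deviate together (r from -0.12 to 0.11 over 15 pairs of conditions). This cannot show whether libraries shared a mouse or culture. Leaving Postn aside, the only call that the replicate block lost was Ecm1 at high against low collagen with IL-4 (adjusted p = 0.207, limma). The read depth is unknown, which limits what can be said of Sparc, Vcan and Postn.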
